A study of Sus scrofa with 7 samples.

Results

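Porcine extra-embryonic endoderm (pXEN) lines were compared with porcine primed embryonic stem cell (primed ESC) lines across all genes, to describe which functions other than the known XEN and pluripotency markers set the cell types apart. The comparison used 5 of the 7 libraries of the study, from pXEN lines 1, 2 and 3 and primed ESC lines 1 and 2, and the other 2 libraries, from naïve-like ESC lines, entered the filter on low counts and the estimate of the spread between lines. The pXEN lines were grown out of the inner cell mass of day-6 parthenogenetic blastocysts, which have no father, and were sampled at passages 26, 26 and 23. They were kept on mouse embryonic fibroblast feeders in a medium with LIF, the GSK3 inhibitor CHIR99021, (S)-(+)-dimethindene maleate, minocycline, the ROCK inhibitor Y27632 and serum. The primed ESC lines, both at passage 20, had been converted from naïve-like ESCs according to the labels. They were kept on STO mouse fibroblast feeders with activin A, bFGF, EGF and LIF and no inhibitor. Cell type, medium and feeder changed together, so their parts in any difference cannot be told apart. Each line gave 1 library of RNA depleted of ribosomal RNA. Nothing states that the lines of a type came from separate embryos, so the p-values measure the spread between these libraries.

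The extra-embryonic endoderm arises from the hypoblast, the layer that faces the blastocyst cavity, and goes on to form the parietal and visceral endoderm of the yolk sac. The visceral layer is an absorptive epithelium. It takes up nutrients through an apical brush border, digests them in lysosomes, and secretes plasma proteins and lipoproteins before the liver is formed. The parietal layer is known for the thick basement membrane it lays down. Primed pluripotent cells stand for the epiblast shortly before gastrulation, which forms the germ layers of the embryo, among them the neural ectoderm.

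Between 10408164 and 12995720 counts per library were assigned to genes. The marker genes chosen for the cell types differed in the direction of the labels. These few genes do not settle the state of the primed ESC lines. HNF4A, a transcription factor of endoderm, was at 277, 211 and 268 FPKM (fragments scaled by gene length and library total, a level per length) in the respective pXEN lines, and in those of primed ESCs at 0.217 and 0.141. GATA4, another endoderm factor, had between 4436 and 5392 counts in pXEN, against 1 and 0 in primed ESCs. SOX2, a pluripotency factor, had 0, 30 and 0 counts in the pXEN lines against 2452 and 2729, and ZIC1, a factor of neural ectoderm, had 0 in every pXEN line against 2500 and 2067. Line 2 of the pXEN cells stood apart in several measures. It had 38 counts on chromosome Y, where the other 4 libraries had 0 to 3. The summed FPKM of 25 fibroblast markers was 593 in pXEN line 2 but 108 and 118 in pXEN lines 1 and 3, with 1107 and 1259 for primed ESCs. The median log2 level of the 651 tested genes of chromosome 13, relative to the primed ESC lines, was 0.53 in pXEN lines 1 and 3 but 0.08 in pXEN line 2. Values without line 2, or without the genes of chromosome 13, are given where they differ by over 1.5 times.

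Of 17447 genes tested with edgeR's quasi-likelihood test, 48.3% were called at an adjusted p below 0.05. The calls were divided almost evenly, with 4168 genes (23.9% of those tested) higher in pXEN and 4261 (24.4%) lower, and the median log2 fold change over all tested genes was -0.01. Among the called genes, 1734 were higher and 1851 lower by at least 4-fold. Below, log2 fold changes are pXEN minus primed ESC with their standard error, and adjusted p values are from edgeR with Benjamini-Hochberg adjustment over all tested genes. A gene with 3 or fewer counts in every library of a group is given as a bound, in which each library under 3 counts was raised to 3. There were 534 such genes in the primed ESC lines, of which 474 were called higher in pXEN, and 917 in the pXEN lines, of which 850 were called lower. Such genes passed the filter on low counts only through lines outside that group. The direction of their calls was thus largely set by the filter, and lists that hold many of them lean the same way. Members of 34 lists of functions were counted against the shares of all tested genes, which the plot of shares per list shows.

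**Figure D1:**
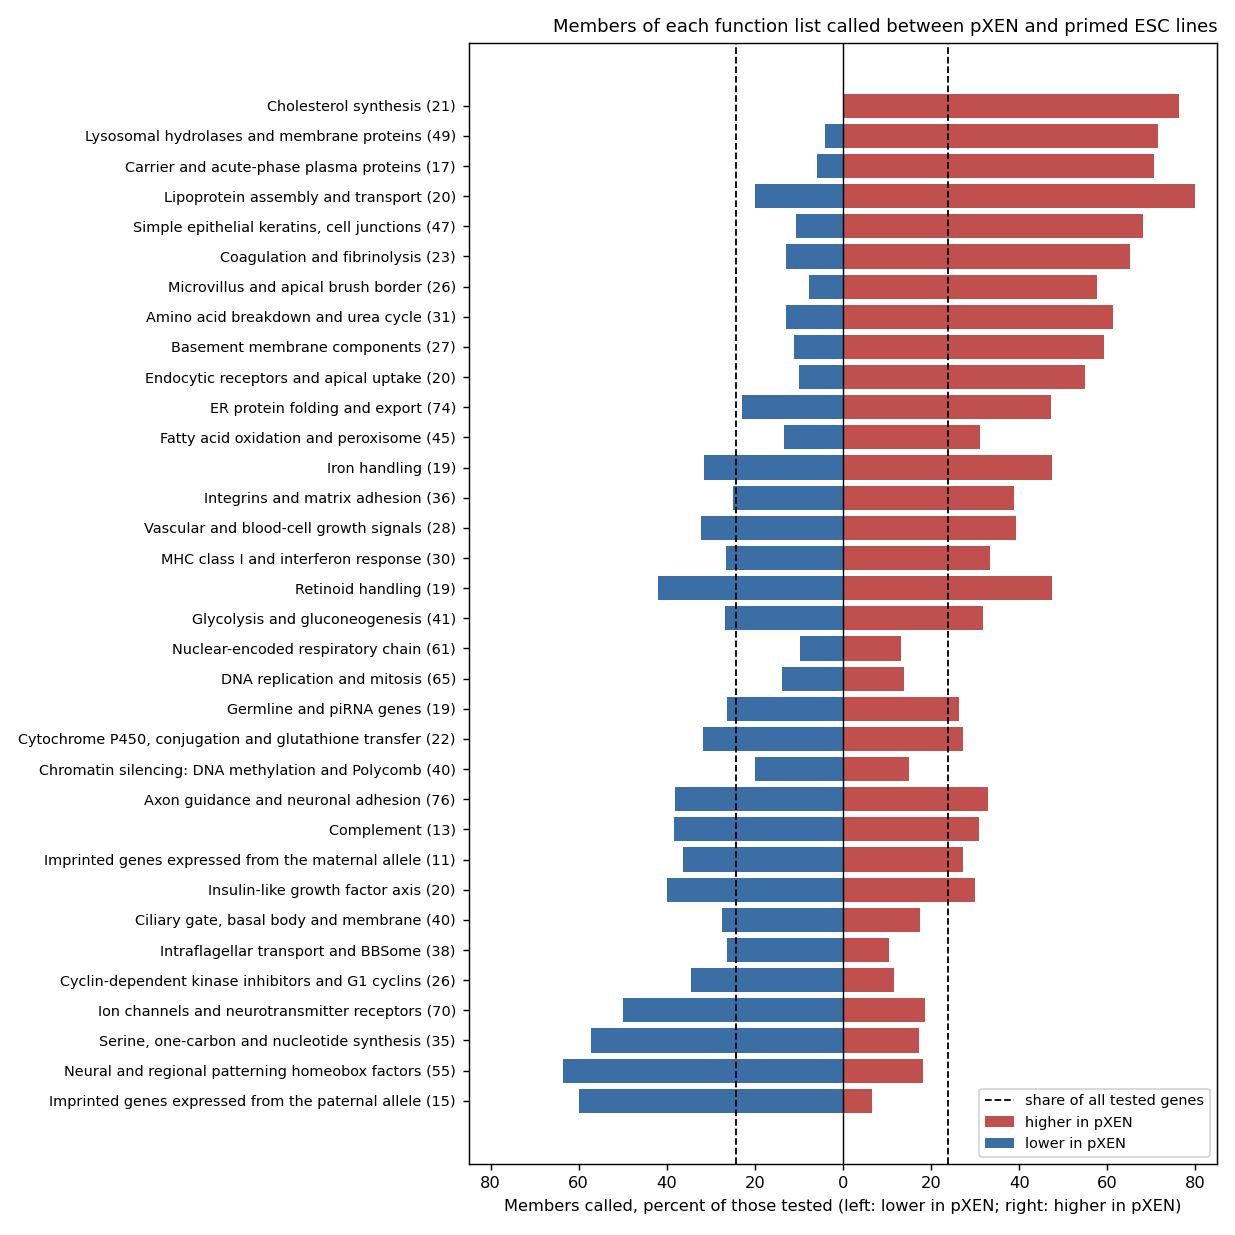
Share of the tested members of each function list that were called higher (red, to the right) or lower (blue, to the left) in pXEN than in primed ESC lines, in percent, with the number tested in parentheses. The dashed lines mark 23.9% and 24.4%, the shares of all 17447 tested genes, and the lists run from cholesterol synthesis, with 16 of 21 members higher and 0 lower, to paternally expressed imprinted genes, with 1 of 15 higher and 9 lower.

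The genes with the greatest folds in favour of pXEN had several roles, from plasma proteins and membrane transporters to a DNA polymerase of lymphocytes. Leaving out the known markers, the 12 leading genes with a mean log2 CPM of at least 3 included SERPINA1, SLC34A2, SLC28A3, SLC7A9, TF, PROC, SERPINF2, HABP2, RELN, SLC3A1 and DNTT. SERPINA1, which encodes alpha-1-antitrypsin, the main plasma inhibitor of neutrophil elastase (ENSSSCG00000002476, chromosome 7, 122616093 to 122621528 of Sscrofa10.2), reached 8976, 40767 and 8354 counts in the 3 pXEN lines and 0 in both primed ESC lines. It was therefore at least 7623-fold higher in pXEN, and at least 3641-fold without pXEN line 2, in which it was highest. SLC28A3, a sodium-driven nucleoside transporter (chromosome 10, 34734230 to 34768182), had 17364, 15999 and 21101 counts against 6 and 21, a log2 fold change of 10.67 ± 0.40 (edgeR, adjusted p = 4.83e-06). With each library raised to 3 counts or more its fold was 1671, and 3579 without primed ESC line 2. DNTT, the terminal transferase that adds nucleotides to the joints of antigen receptor genes in lymphocytes, had 994, 1134 and 1605 counts against 1 and 3, and its lower bound at 3 counts per library was 503-fold.

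Lipoprotein assembly was the list in which the greatest share of members differed. Of 26 genes listed, 20 passed the filter on low counts, and their median log2 fold change was 3.19. Of these, 16 were higher in pXEN and 4 were lower, or 2 with the genes of chromosome 13 left out of the count. APOB, the structural protein of chylomicrons and VLDL (chromosome 3), had 347, 795 and 391 counts in pXEN against 0 and 1 in primed ESCs, and its lower bound at 3 counts per library was 204-fold. Of the smaller apolipoproteins, APOA2 had 562, 2190 and 631 counts and APOC3 had 284, 1083 and 415, each with 0 in both primed ESC lines. They were at least 445-fold and 235-fold higher, or 249-fold and 145-fold without pXEN line 2, the highest line. In the other direction, APOD, a lipid carrier of the lipocalin family, had 2, 1 and 2 counts against 77 and 86, a lower bound of 22.2-fold, and ANGPTL4, an inhibitor of lipoprotein lipase, was at 1.85 to 3.13 FPKM against 11.8 and 15.2, a log2 fold change of -2.51 ± 0.34 (edgeR, adjusted p = 5.85e-04).

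Most of the tested genes for blood clotting and its control were higher too. In the coagulation and fibrinolysis list, 23 of 38 genes were tested, with 15 higher, 3 lower and 5 not called, and a median of 2.25. PROC, the precursor of the anticoagulant protease protein C (chromosome 15, 28724895 to 28735705), varied little among the pXEN lines, at 95.4, 91.7 and 103 FPKM, and had 1 and 3 counts in the primed ESC lines, a lower bound of 718-fold. F2, or prothrombin, was at 121, 103 and 133 FPKM against 0.357 and 0.409, and its log2 fold change was 8.27 ± 0.21 (edgeR, adjusted p = 8.88e-07). SERPINF2, which encodes the plasmin inhibitor alpha-2-antiplasmin, had 1670, 1233 and 1984 counts against 3 and 0, a lower bound of 665-fold, and HABP2, a plasma protease that binds hyaluronan, had 1340, 2180 and 970 against 2 and 1, a lower bound of 604-fold. The 3 lower members were F13A1, PLAT and THBD. F13A1, the A chain of clotting factor XIII, had 0, 2 and 0 counts against 58 and 72, a lower bound of 17.7-fold. PLAT, the tissue plasminogen activator, was at 8.83, 14.2 and 8.63 FPKM against 37.8 and 39.0. THBD, or thrombomodulin, the thrombin receptor of endothelium, had 0, 10 and 2 counts against 282 and 360, with a log2 fold change of -6.02 ± 0.72 (edgeR, adjusted p = 3.39e-04). With counts raised to 3 the primed ESC lines were 50.4-fold above the pXEN lines for THBD, and 84.7-fold above them without pXEN line 2.

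Carrier and acute-phase proteins of plasma showed the greatest median of the lists, 7.71, or 4.86 with bounds in place of fitted values. Among the 17 tested members, 9 were at 3 or fewer counts in both primed ESC lines. The filter kept these only through other lines, which favours a high median. Of 32 genes listed, 17 were tested, and 12 were higher, 1 lower and 4 not called, with 2 lower without pXEN line 2. TF, or transferrin, the iron carrier of plasma (chromosome 13, 82429036 to 82469005), was at 233, 372 and 226 FPKM against 0.203 and 0.317, with a log2 fold change of 10.03 ± 0.42 (edgeR, adjusted p = 6.72e-06). AMBP, the precursor of alpha-1-microglobulin and bikunin, had 704, 1365 and 999 counts against 0 and 0 and was at least 410-fold higher. A1BG, a plasma glycoprotein, was even among the pXEN lines, at 116, 95.4 and 105 FPKM, against 0.621 and 0.388. This list held 6 genes of chromosome 13, and with the genes of that chromosome left out of the count, 7 of the higher members remained. Line 2 was the highest pXEN line for 8 of the 12 higher members, compared with 37.7% of all genes called higher. AFP, alpha-fetoprotein, is a known XEN marker and was chosen here after its values were seen: its counts were 60, 4037 and 37 in the 3 pXEN lines and 0 in both primed ESC lines, and it was not called (edgeR, adjusted p = 0.0580). ALB, or albumin, also chosen after its values were seen, had 0, 57 and 2 counts against 0 and 2. The single member called lower was APCS, the serum amyloid P component, with 0, 9 and 2 counts against 125 and 60; its fold with counts raised to 3 was 15.7 towards the primed ESC lines, 9.75 without primed ESC line 1 and 24.8 without pXEN line 2.

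Not every liver-type function was higher in pXEN. Of 13 complement genes tested of 27 listed, 4 were higher and 5 lower, with a median of 0.21, and 2 were called higher without primed ESC line 1, and also without line 2. C6, a component of the membrane attack complex, had 63, 161 and 160 counts against 2 and 3, a lower bound of 50.9-fold. CD59, which protects the cell's own membrane from that complex, was at 3.05, 5.86 and 4.79 FPKM against 33.7 and 40.4, with a log2 fold change of -3.00 ± 0.26 (edgeR, adjusted p = 6.90e-05). Drug-metabolizing and conjugating enzymes had 6 members higher, 7 lower and 9 not called of the 22 tested, of 64 listed. With counts raised to 3, the higher members were led by CYP26A1, which degrades retinoic acid, at 39.7, 11.3 and 42.7 FPKM against 1.43 and 1.34. The lower ones were then led by SULT1C4, a sulfotransferase, at 0.612 to 1.45 FPKM against 13.2 and 9.49. CYP17A1, of the same list, had 0 counts in every pXEN line against 27 and 35, a lower bound of 8.43-fold.

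Iron, amino acid and lipid metabolism each had more members higher than lower, beside 23.9% higher and 24.4% lower over all tested genes. Iron handling exceeded both shares, at 47.4% and 31.6%, and fatty acid oxidation was at 31.1% and 13.3%. In iron handling, 9 of 19 tested genes were higher and 6 lower, of 29 listed; the lower count was 3 without pXEN line 1 or without either primed ESC line. SLC39A8, an importer of zinc, manganese and iron, had 941, 1224 and 1042 counts against 2 and 3, a lower bound of 432-fold. STEAP3, the ferrireductase of the transferrin uptake route, was at 3.44, 2.75 and 3.88 FPKM against 0.264 and 0.194, a log2 fold change of 3.87 ± 0.35 (edgeR, adjusted p = 8.34e-05). In amino acid breakdown and the urea cycle, 31 of 42 listed genes were tested, with 19 higher and 4 lower, or 12 and 10 higher without primed ESC lines 1 and 2 in turn. The first urea cycle enzymes were higher: CPS1 had 249, 706 and 422 counts against 1 and 0, a lower bound of 182-fold, and OTC had 67, 143 and 123 against 0 and 0 and was at least 44.3-fold higher. FTCD, which breaks down histidine, was at 141, 60.0 and 121 FPKM against 1.85 and 1.53. ASS1, the next enzyme of the cycle, went the other way, at 5.08, 1.52 and 5.29 FPKM against 74.8 and 85.8, with a log2 fold change of -4.34 ± 0.71 (edgeR, adjusted p = 1.54e-03).

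Most genes of cholesterol synthesis were higher in pXEN. Of 25 genes listed, 21 were tested, 16 were higher, 5 were not called and 0 were lower with edgeR, also at an unadjusted p below 0.05; the median log2 fold change was 1.15. DESeq2's test called 1 member lower, and edgeR did so without primed ESC line 2. FDPS, which makes farnesyl diphosphate, was at 431, 395 and 351 FPKM against 91.7 and 94.1, a log2 fold change of 2.09 ± 0.13 (edgeR, adjusted p = 1.64e-05). STARD4, a carrier of cholesterol between membranes, was at 44.1, 41.4 and 49.0 FPKM against 9.05 and 9.51. ACAT2, a thiolase that makes acetoacetyl-CoA, was at 187 to 229 FPKM against 63.7 and 66.1. The groups did not overlap in 18 of the 21 genes, compared with 68.1% of all tested genes. Fatty acid oxidation and peroxisomes had 14 of 45 tested genes higher and 6 lower, of 51 listed, with 25 not called; without primed ESC line 1, 8 were higher, and without primed ESC line 2, 3 were lower, while 10 were lower without pXEN line 2. ACADM, the medium-chain acyl-CoA dehydrogenase, was at 92.2, 70.9 and 103 FPKM against 25.6 and 31.5, and ACOX2, a peroxisomal oxidase of branched chains and bile acid precursors, had 283, 146 and 293 counts against 4 and 0. PHYH, which starts the breakdown of phytanic acid in peroxisomes, was lower, with 1, 3 and 1 counts against 66 and 60, a lower bound of 17.2-fold.

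**Figure D2:**
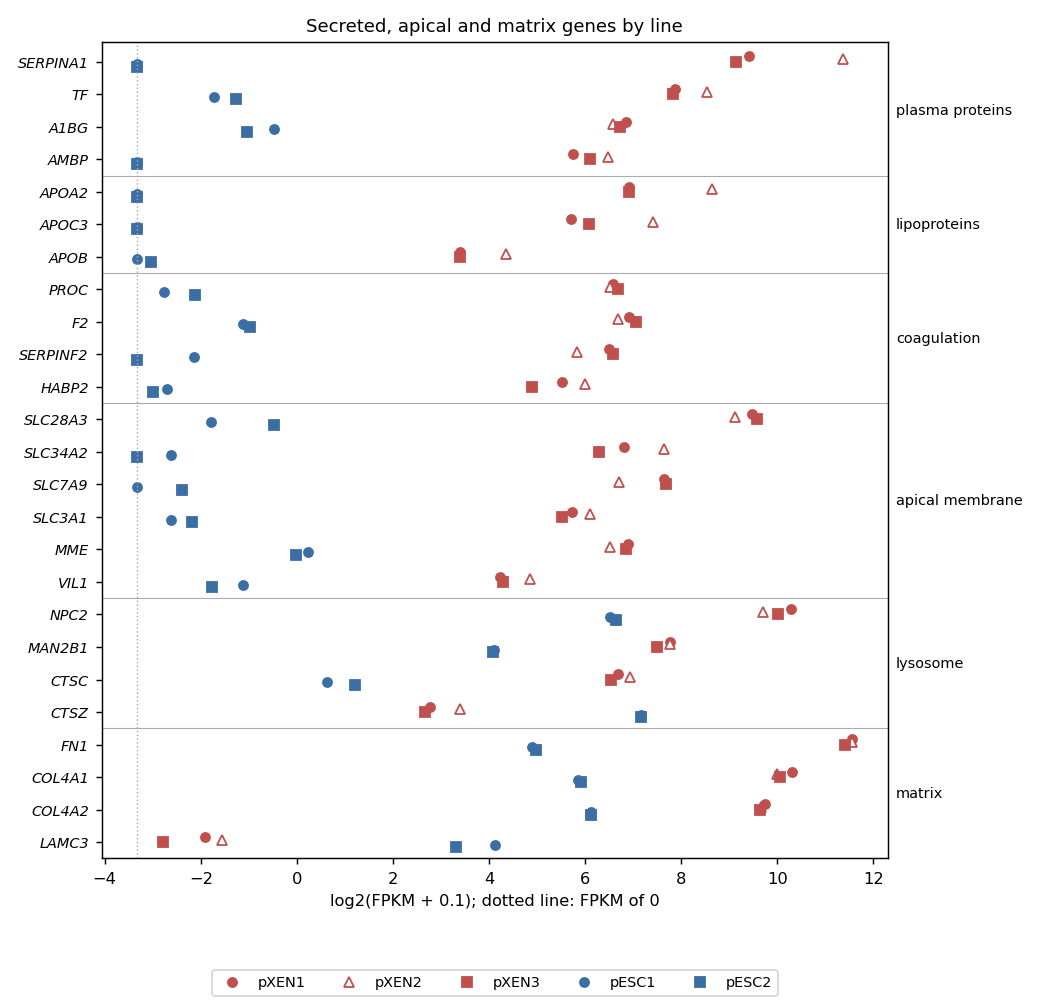
Level of 25 genes in each library as log2(FPKM + 0.1), with pXEN lines in red (line 2 as open triangles) and primed ESC lines in blue; the dotted line marks an FPKM of 0. The pXEN lines lie to the right of the primed ESC lines for every gene except CTSZ and LAMC3, and pXEN line 2 lies farthest to the right for SERPINA1, APOA2 and APOC3.

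Genes of the apical surface of absorptive cells made up another group. In the microvillus and brush border list, 26 of 30 genes were tested, with 15 higher, 2 lower and 9 not called, and a median of 2.74, or 2.35 with bounds; 4 were lower without pXEN line 2. VIL1, or villin, which bundles the actin of microvilli (chromosome 15), was at 18.6, 28.6 and 19.5 FPKM against 0.358 and 0.195, with a log2 fold change of 6.33 ± 0.35 (edgeR, adjusted p = 8.01e-06). PDZK1, a scaffold for apical transporters, was at 9.95, 13.8 and 8.80 FPKM against 0.166 and 0.0621. MME, or neprilysin, a membrane peptidase, was at 119, 92.0 and 116 FPKM against 1.07 and 0.894, a log2 fold change of 6.80 ± 0.24 (edgeR, adjusted p = 2.11e-06). CDH17, an intestinal and liver cadherin, rested on 1 line, with 28, 586 and 30 counts against 0 and 0: it was at least 82.8-fold higher, at least 12.1-fold without pXEN line 2, and was not called without primed ESC line 1 or without line 2 (edgeR, adjusted p = 0.109 and 0.114). MSN, or moesin, an actin linker of the same family as ezrin, was lower, at 37.1 to 41.6 FPKM against 67.0 and 72.8.

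Transporters of the brush border were among the 12 leading genes. SLC34A2, a sodium-phosphate cotransporter (chromosome 8, 19832502 to 19848016), had 4205, 8807 and 3250 counts against 3 and 0, a lower bound of 2172-fold. The light and heavy chains of the cystine transporter of kidney and gut were higher together. SLC7A9 (chromosome 6, 38108058 to 38212929) had 3256, 1977 and 3716 counts against 0 and 2, a lower bound of 1223-fold, and SLC3A1, on chromosome 3, had 1302, 1974 and 1254 against 2 and 4, a log2 fold change of 9.19 ± 0.38 (edgeR, adjusted p = 2.69e-06). Both subunits were thus present in every pXEN line and close to the floor in both primed ESC lines. SLC7A3, a transporter of cationic amino acids, was the counterpart among the leading lower genes, with 1, 2 and 3 counts against 1083 and 1278, a lower bound of 321-fold.

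Endocytic receptors and apical uptake had 11 of 20 tested genes higher and 2 lower, of 30 listed, with a median of 0.57; without primed ESC line 1, 6 were higher. AMN, the membrane anchor of the receptor for vitamin B12 and many filtered proteins, had 78, 161 and 84 counts against 0 and 0 and was at least 43.1-fold higher. FCGRT, the neonatal Fc receptor that carries antibodies across epithelia, was at 78.6, 89.7 and 84.6 FPKM against 30.1 and 29.2, a log2 fold change of 1.52 ± 0.16 (edgeR, adjusted p = 1.86e-04). The lower members were small in fold: SNX5, a sorting nexin, had a log2 fold change of -0.91 ± 0.11 and AP2A1, a subunit of the clathrin adaptor, had a log2 fold change of -0.52 ± 0.10.

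Most lysosomal genes tested were higher in pXEN, with moderate folds. Of 54 genes listed, 49 were tested, and 35 were higher, 2 lower and 12 not called, with a median of 0.99. NPC2, which carries cholesterol out of lysosomes (chromosome 7), was at 1244, 831 and 1038 FPKM against 91.3 and 99.4, a log2 fold change of 3.45 ± 0.19 (edgeR, adjusted p = 8.30e-06). MAN2B1, or lysosomal alpha-mannosidase, was at 217, 217 and 179 FPKM against 17.0 and 16.9, and CTSC, or cathepsin C, at 103, 122 and 93.0 against 1.44 and 2.22. A different cathepsin went the other way. CTSZ was at 6.73, 10.4 and 6.22 FPKM in the pXEN lines and at 144 in both primed ESC lines, with a log2 fold change of -4.19 ± 0.21 (edgeR, adjusted p = 6.35e-06). Leaving out primed ESC lines 1 and 2 in turn left 25 and 26 lysosomal genes called higher, and 1 was lower without primed ESC line 1 or without pXEN line 1.

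**Figure D3:**
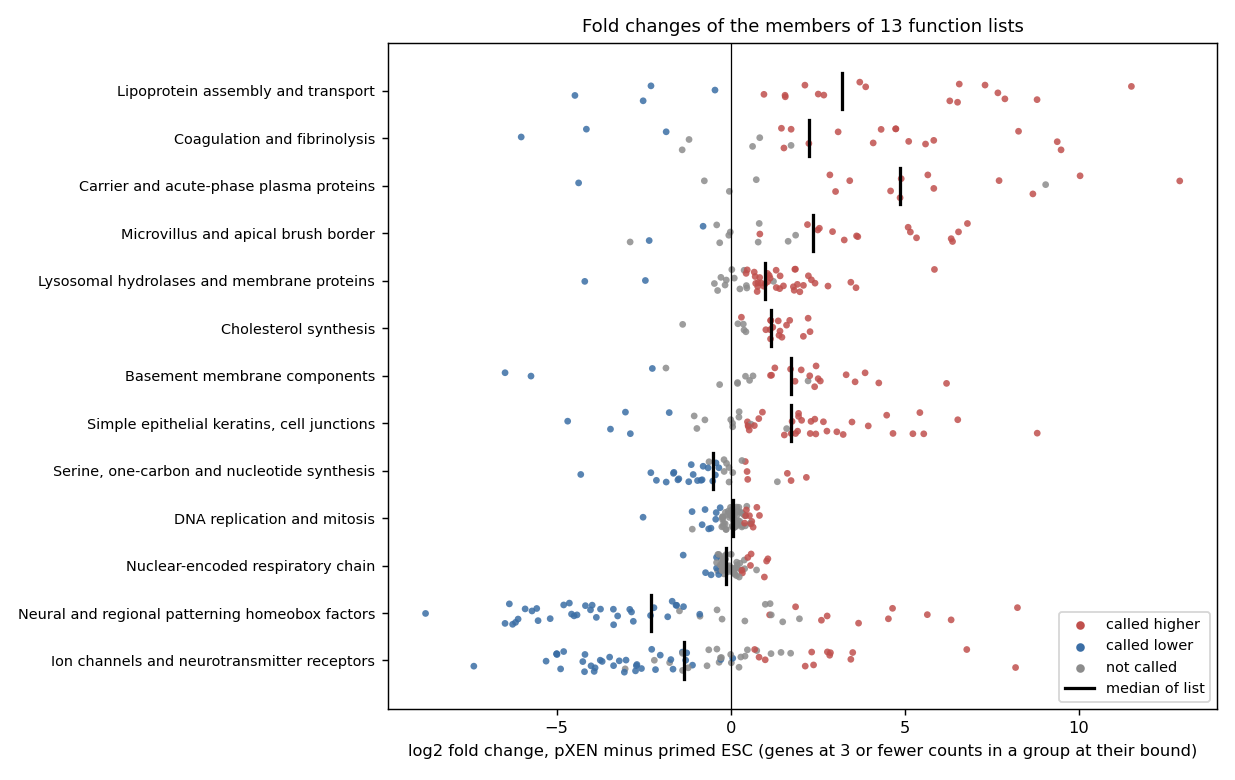
Log2 fold change of each tested member of 13 function lists, pXEN minus primed ESC, with called members in red or blue, members not called in grey, and the list's median as a black bar; genes at 3 or fewer counts in a group are drawn at their bound. The medians run from 4.86 for carrier and acute-phase plasma proteins to -2.30 for patterning homeobox factors, while DNA replication and respiratory chain genes lie near 0.

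The secretory pathway and the matrix differed as well. Of 83 genes for protein folding and export in the endoplasmic reticulum, 74 were tested, with 35 higher and 17 lower, and a median of 0.28; 8 were lower without primed ESC line 2. The higher members included the collagen-modifying enzymes PLOD2, a lysyl hydroxylase, at 291, 157 and 319 FPKM against 17.3 and 18.7, and P4HA2, a prolyl hydroxylase, at 41.9, 40.0 and 51.3 against 7.44 and 8.46. The lower members included CRELD2, a folding factor induced by stress, with a log2 fold change of -1.46 ± 0.13 (edgeR, adjusted p = 7.52e-05).

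Basement membrane genes had 16 of 27 tested members higher and 3 lower, of 34 listed, with a median of 1.72; 6 of the tested members, COL4A1 and COL4A2 among them, were known XEN markers. COL4A1 was at 1267, 1026 and 1068 FPKM against 57.7 and 60.4. FBLN2, or fibulin-2, which is no such marker, was at 93.3, 54.9 and 53.6 FPKM against 4.21 and 5.09, with a log2 fold change of 3.86 ± 0.29 (edgeR, adjusted p = 3.50e-05). LAMC3, a laminin gamma chain, was lower and had 10, 17 and 3 counts against 1361 and 815, a log2 fold change of -6.48 ± 0.48 (edgeR, adjusted p = 3.26e-05). SMOC1, a calcium-binding basement membrane protein, had 0, 2 and 0 counts against 183 and 208, a lower bound of 53.3-fold.

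FN1, or fibronectin, an adhesive glycoprotein of matrix and plasma on chromosome 15, was the most abundant gene of the integrin and matrix adhesion list in pXEN. It had 242638, 282906 and 244565 counts in the pXEN lines against 3048 and 3449, and its level was 3023, 3017 and 2729 FPKM against 29.6 and 31.4, a log2 fold change of 6.59 ± 0.24 (edgeR, adjusted p = 2.11e-06). ITGA5, the alpha chain of the fibronectin receptor, was at 226, 167 and 222 FPKM against 27.4 and 26.9, a log2 fold change of 2.93 ± 0.23 (edgeR, adjusted p = 4.00e-05). ITGA4, the alpha chain of another fibronectin-binding integrin, was lower, at 0.232 to 0.458 FPKM against 2.17 and 2.94. Over the 36 tested genes of this list, of 40 listed, 14 were higher and 9 lower, with a median of 0.10, and 9 were higher without primed ESC line 2.

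Keratins and junction proteins of simple epithelia had 32 of 47 tested genes higher and 5 lower, of 64 listed, with a median of 1.76. Among the tested members, 4 were known markers: CDH1, KRT18, KRT8 and PECAM1. SPINT1, an inhibitor of membrane-bound serine proteases of epithelia, was at 141, 141 and 124 FPKM against 0.156 and 0.437, with a log2 fold change of 8.80 ± 0.30 (edgeR, adjusted p = 3.42e-06). With counts raised to 3 its fold was 459, and 875 without primed ESC line 2. The plakophilins, plaque proteins of desmosomes, were divided: PKP3 was at 21.3, 26.2 and 17.6 FPKM against 0.536 and 0.396, while PKP1 had 0 counts in every pXEN line against 109 and 78 and was at least 25.7-fold lower. CLDN7, a tight junction protein, was uneven among the pXEN lines, with 508, 98 and 33 counts against 0 and 1; its lower bound was 91.8-fold, 25.3-fold without pXEN line 1, and it was not called without primed ESC line 1 (edgeR, adjusted p = 0.0556).

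Signals and sugar metabolism showed divided lists. Of 28 vascular and blood-cell growth signals tested, of 48 listed, 11 were higher and 9 lower. ANGPT2, a ligand of the TIE2 receptor, was at 6.73, 6.03 and 7.23 FPKM against 0.0680 and 0.0764, with a log2 fold change of 6.50 ± 0.37 (edgeR, adjusted p = 9.57e-06). TEK, which encodes that receptor, was at 0.137, 0.0390 and 0.102 FPKM against 15.3 and 18.3, a log2 fold change of -7.49 ± 0.31 (edgeR, adjusted p = 6.51e-06). The ligand was thus higher in every pXEN line and the receptor in both primed ESC lines. THPO, or thrombopoietin, the hormone of platelet formation, was at 28.3, 21.8 and 25.1 FPKM against 0.895 and 0.628. Retinoid handling had 9 of 19 tested genes higher and 8 lower, of 36 listed. The enzyme BCMO1, which splits beta-carotene, had 24, 30 and 25 counts against 0 and 0 and was at least 10.7-fold higher, while CRABP2, a carrier of retinoic acid within cells, had 3, 101 and 8 counts against 2674 and 3313. With counts raised to 3, CRABP2 was 69.2-fold higher in the primed ESC lines, and 443-fold without pXEN line 2.

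Glycolysis and gluconeogenesis had 13 of 41 tested genes higher and 11 lower, of 48 listed, or 11 and 13 with upper-quartile scaling, and a median of 0.01. The higher members with the greatest folds included liver forms. SLC2A2, the glucose transporter of liver, had 87, 226 and 62 counts against 0 and 0 and was at least 49.8-fold higher, or 31.5-fold without pXEN line 2. PCK1, which controls gluconeogenesis, had 34, 69 and 42 against 0 and 0 and was at least 19.4-fold higher. The enolase ENO2, a form of neurons, was lower, with 6, 14 and 4 counts against 1063 and 913, a log2 fold change of -6.65 ± 0.34 (edgeR, adjusted p = 6.17e-06). Its fold with counts raised to 3 was 103, and 156 without pXEN line 2. FBP1, a gluconeogenic phosphatase, did not go with PCK1: it had 0, 8 and 0 counts in the pXEN lines against 590 and 692, a log2 fold change of -7.57 ± 0.67.

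The respiratory chain and DNA replication lists were read beside the 48.3% of all tested genes that were called. Of 61 nuclear-encoded respiratory chain genes tested, of 75 listed, 8 were higher, 6 lower and 47 not called, with a median of -0.12. Leaving out pXEN line 2 raised the lower count to 25 with 8 higher, in a setting where 4572 of all tested genes were higher and 4994 lower, so the low share called rested on that line. Without primed ESC lines 1 and 2 in turn the lower count was 3 and 1. The higher count was 3 without either primed ESC line and 5 without pXEN line 1. Upper-quartile scaling gave 5 higher and 12 lower, so the list's balance of directions depends on the scaling. DNA replication and mitosis had 9 of 65 tested genes higher, 9 lower and 47 not called, of 71 listed, with a median of 0.08; the higher count was 14 without pXEN line 2 and 4 without primed ESC line 1, and the lower count was 5 and 3 without primed ESC lines 1 and 2. Within that list the phosphatase CDC25B, which starts mitosis, stood out at 7.55, 8.76 and 8.42 FPKM against 47.3 and 47.7, a log2 fold change of -2.52 ± 0.10 (edgeR, adjusted p = 2.69e-06). Cyclin-dependent kinase inhibitors and G1 cyclins had 3 of 26 tested genes higher and 9 lower, of 28 listed. Those counts were 1 and 3 without primed ESC line 1, and 4 were lower without primed ESC line 2. CDKN1A, which encodes the kinase inhibitor p21, was at 2.46, 1.38 and 4.51 FPKM against 31.4 and 14.2, a log2 fold change of -3.03 ± 0.85 (edgeR, adjusted p = 0.0193), and was not called without pXEN line 1 or without primed ESC line 1. Its fold with counts raised to 3 was 8.17, and 5.10 without primed ESC line 1. CCND1, or cyclin D1, was at 45.0, 14.7 and 27.5 FPKM against 76.5 and 67.1, and was not called without pXEN line 3 or without either primed ESC line. Among the higher members, MYCL was at 19.4, 11.7 and 22.3 FPKM against 4.66 and 3.14, a log2 fold change of 2.20 ± 0.35 (edgeR, adjusted p = 1.32e-03).

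Of 42 genes for serine, one-carbon and nucleotide synthesis, 35 were tested, with 20 lower in pXEN, 6 higher and 9 not called, and a median of -0.52. CAD, which carries out the first steps of pyrimidine synthesis, was at 1.09, 0.119 and 0.695 FPKM against 12.6 and 12.3, a log2 fold change of -4.31 ± 0.51 (edgeR, adjusted p = 3.03e-04). Its fold with counts raised to 3 was 19.4, and 30.4 without pXEN line 1. MTHFD2, a mitochondrial folate enzyme, was at 16.6, 14.6 and 15.6 FPKM against 53.8 and 59.5, a log2 fold change of -1.85 ± 0.14 (edgeR, adjusted p = 3.13e-05). ALDH1L1 and ALDH1L2, cytosolic and mitochondrial forms of a folate enzyme, differed in opposite directions, with log2 fold changes of 2.17 ± 0.28 and -2.29 ± 0.20. Without primed ESC lines 1 and 2 in turn, 17 and 16 of the list were lower and 2 and 1 higher.

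The genes with the greatest folds in favour of the primed ESC lines were chosen by the same rule as above. They were STMN2, FZD10, WNT4, EN2, TFAP2C, ZIC4, GLI3, SLC7A3, CD70, FGF19, ADCY4 and SEMA5B. STMN2, a microtubule regulator of growing neurites (chromosome 4), had 0, 4 and 0 counts in the pXEN lines against 12883 and 14045, or 416 and 425 FPKM, a log2 fold change of -12.90 ± 0.52 (edgeR, adjusted p = 2.40e-06). FZD10, a receptor for WNT proteins, had 0, 2 and 0 counts against 2268 and 2384, a lower bound of 634-fold. CD70, the ligand of the CD27 receptor of lymphocytes, had 0, 2 and 0 against 1050 and 1112, a lower bound of 295-fold. FGF19, a secreted fibroblast growth factor, had 0 in every pXEN line against 818 and 1176 and was at least 271-fold lower. GLI3, a transcription factor of hedgehog signalling on chromosome 18, had 0, 4 and 0 counts against 1361 and 1398.

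Homeobox factors that pattern the body and the nervous system had the lowest median of the function lists, -3.25, or -2.30 with bounds. Of 88 listed genes 55 were tested, with 35 lower, 10 higher and 10 not called. Among the 55, 16 were at 3 or fewer counts in every pXEN line and 2 in both primed ESC lines. The filter kept these only through other lines. EN2, a factor of the midbrain and hindbrain, had 0 counts in every pXEN line against 1616 and 1565 and was at least 434-fold lower. LMX1A, a factor of the roof plate and of dopamine neurons, had 0, 2 and 0 counts against 361 and 291, a lower bound of 89.3-fold, and POU3F3, a factor of neural precursors, had 0, 1 and 0 against 250 and 282, a lower bound of 72.5-fold. The higher members with the greatest folds were HOXD13 and LHX1. HOXD13, the factor at the 5′ end of the HOXD cluster and known from limb and hindgut, had 513, 959 and 784 counts against 0 and 3, a lower bound of 301-fold. LHX1, a factor of the anterior visceral endoderm, kidney and head organizer, had 971, 407 and 1304 against 19 and 8, a log2 fold change of 6.33 ± 0.68 (edgeR, adjusted p = 1.93e-04); its fold was 80.6 with counts raised to 3 and 142 without primed ESC line 1.

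Genes for axon guidance were divided, with 25 of 76 tested higher and 29 lower, of 91 listed. RELN, or reelin, a secreted guide of neuron migration that is not in the list but is among the 12 leading genes above, had 8537, 10903 and 14406 counts in the pXEN lines against 22 and 28, a log2 fold change of 9.09 ± 0.34 (edgeR, adjusted p = 2.11e-06). FLRT2, an adhesion molecule, was at 125, 155 and 106 FPKM against 3.99 and 3.93, and UNC5D, a repulsive receptor that binds it, at 56.7, 64.9 and 41.5 against 1.91 and 1.44. Among the lower genes, SEMA5B, a semaphorin, had 0, 1 and 0 counts against 969 and 947, a lower bound of 262-fold. SLIT1, a repellent of axons, had 0, 1 and 0 against 888 and 1010, a lower bound of 259-fold. ASTN1, an adhesion molecule of migrating neurons, had 0 in every pXEN line against 774 and 659 and was at least 196-fold lower.

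Ion channels and neurotransmitter receptors had 35 of 70 tested genes lower and 13 higher, of 112 listed, with a median of -1.87, or -1.34 with bounds; 6 were higher without primed ESC line 2. GABRA5, a subunit of the GABA-A receptor, had 0 counts in every pXEN line against 616 and 601 and was at least 166-fold lower. GRIK1, a kainate receptor of glutamate, had 0 against 122 and 111 and was at least 31.9-fold lower, and KCNH2, a potassium channel of heart muscle, had 0, 3 and 2 against 110 and 123, a lower bound of 31.7-fold. The higher members with the greatest folds were channels of epithelia. KCNJ16, a potassium channel of kidney tubules, had 223, 338 and 257 counts against 0 and 0 and was at least 110-fold higher. KCNE3, a channel subunit of gut epithelium, had 692, 338 and 1100 against 1 and 2, a lower bound of 290-fold.

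**Figure D4:**
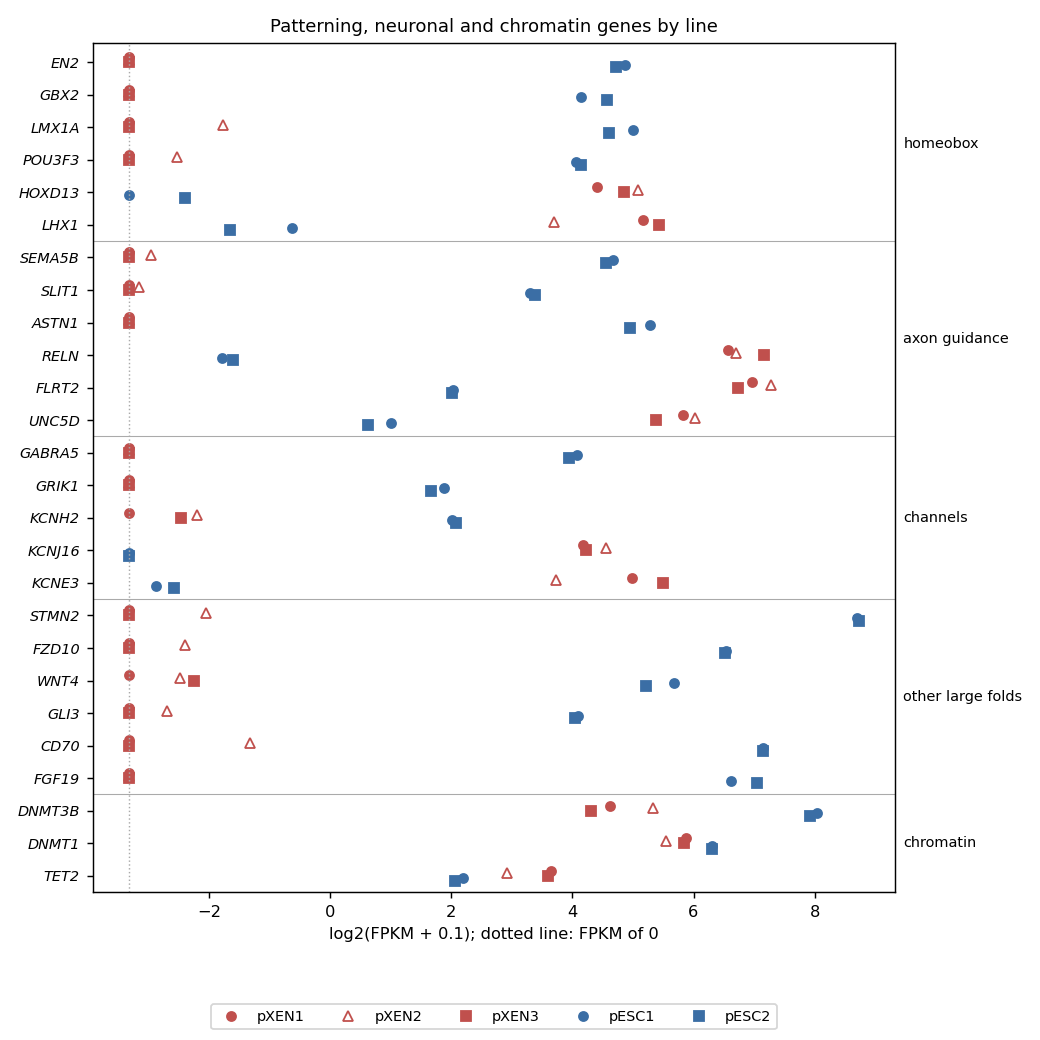
Level of 26 patterning, neuronal, signalling and chromatin genes in each library as log2(FPKM + 0.1), with pXEN lines in red (line 2 as open triangles) and primed ESC lines in blue; the dotted line marks an FPKM of 0. HOXD13, LHX1, RELN, FLRT2, UNC5D, KCNJ16, KCNE3 and TET2 lie to the right in the pXEN lines and the other 18 genes in the primed ESC lines.

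Genes of DNA methylation and Polycomb silencing had 6 of 40 tested higher, 8 lower and 26 not called, of 48 listed, where 48.3% of all tested genes were called; 5 and 4 were lower without primed ESC lines 1 and 2 in turn. DNMT3B, the methyltransferase that sets new methylation and a known marker of primed pluripotency, was at 24.4, 40.3 and 19.6 FPKM against 264 and 242, a log2 fold change of -3.16 ± 0.28 (edgeR, adjusted p = 7.23e-05). DNMT1, which maintains methylation, had a smaller log2 fold change of -0.53 ± 0.11 (edgeR, adjusted p = 6.02e-03). TET2, which oxidizes methylcytosine, was higher, at 7.45 to 12.4 FPKM against 4.46 and 4.05, a log2 fold change of 1.33 ± 0.23 (edgeR, adjusted p = 2.20e-03).

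Genomic imprinting marks some genes for expression from the copy of 1 parent, and a parthenogenetic embryo has only maternal copies. Whether the embryos behind the primed ESC lines had a father is not given in the sources used here. Of 23 listed genes that are expressed from the paternal copy in other mammals, 15 were tested, with 9 lower in pXEN, 1 higher and 5 not called, and a median of -0.86. NDN, or necdin, was at 6.31, 1.64 and 5.21 FPKM against 49.0 and 47.3, a log2 fold change of -3.46 ± 0.40 (edgeR, adjusted p = 2.83e-04). PLAGL1, a zinc finger factor, was at 2.18, 6.37 and 3.98 FPKM against 23.6 and 28.3, a log2 fold change of -2.61 ± 0.35 (edgeR, adjusted p = 5.54e-04). SGCE, a sarcoglycan, was at 2.54, 1.72 and 3.41 FPKM against 8.75 and 7.81. In these genes no pXEN line reached a primed ESC line, but none of them was at 0 in pXEN. NNAT, or neuronatin, had 46, 44 and 54 counts against 125 and 1236, so its log2 fold change of -3.50 rested on primed ESC line 2; without that line it was -1.15 and not called (edgeR, adjusted p = 0.0677).

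The higher member, PON1, a lipoprotein-bound esterase, had 16, 18 and 7 counts against 3 and 0. Without pXEN line 1 it no longer passed the filter. It was not called without primed ESC line 2, with the line number as a block, or with DESeq2's test. Other paternally expressed genes were not called. SNRPN, a splicing protein gene, had 1090, 1346 and 1139 counts in the pXEN lines against 1335 and 1499, a log2 fold change of 0.03 (edgeR, adjusted p = 0.810), and MAGEL2 had 640, 505 and 662 against 675 and 591, a log2 fold change of 0.22 (edgeR, adjusted p = 0.375). IGF2, the fetal growth factor, was listed at 0 counts in all 5 libraries, which allows up to 3 counts per library. DLK1, a notch ligand homologue, had 0 counts in every pXEN line against 42 and 4, and was removed by the filter. Maternally expressed genes had 3 of 11 tested higher and 4 lower, of 20 listed, with a median of -0.31, and each of the 4 lower calls, PHLDA2, IGF2R, COPG2 and NAP1L4, was lost without primed ESC line 1 or without line 2 (edgeR, adjusted p between 0.0655 and 0.274). SLC22A18, an organic cation transporter, had 96, 130 and 137 counts against 1 and 1, a lower bound of 48.8-fold. The plot of imprinted genes by line gives the other members.

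**Figure D5:**
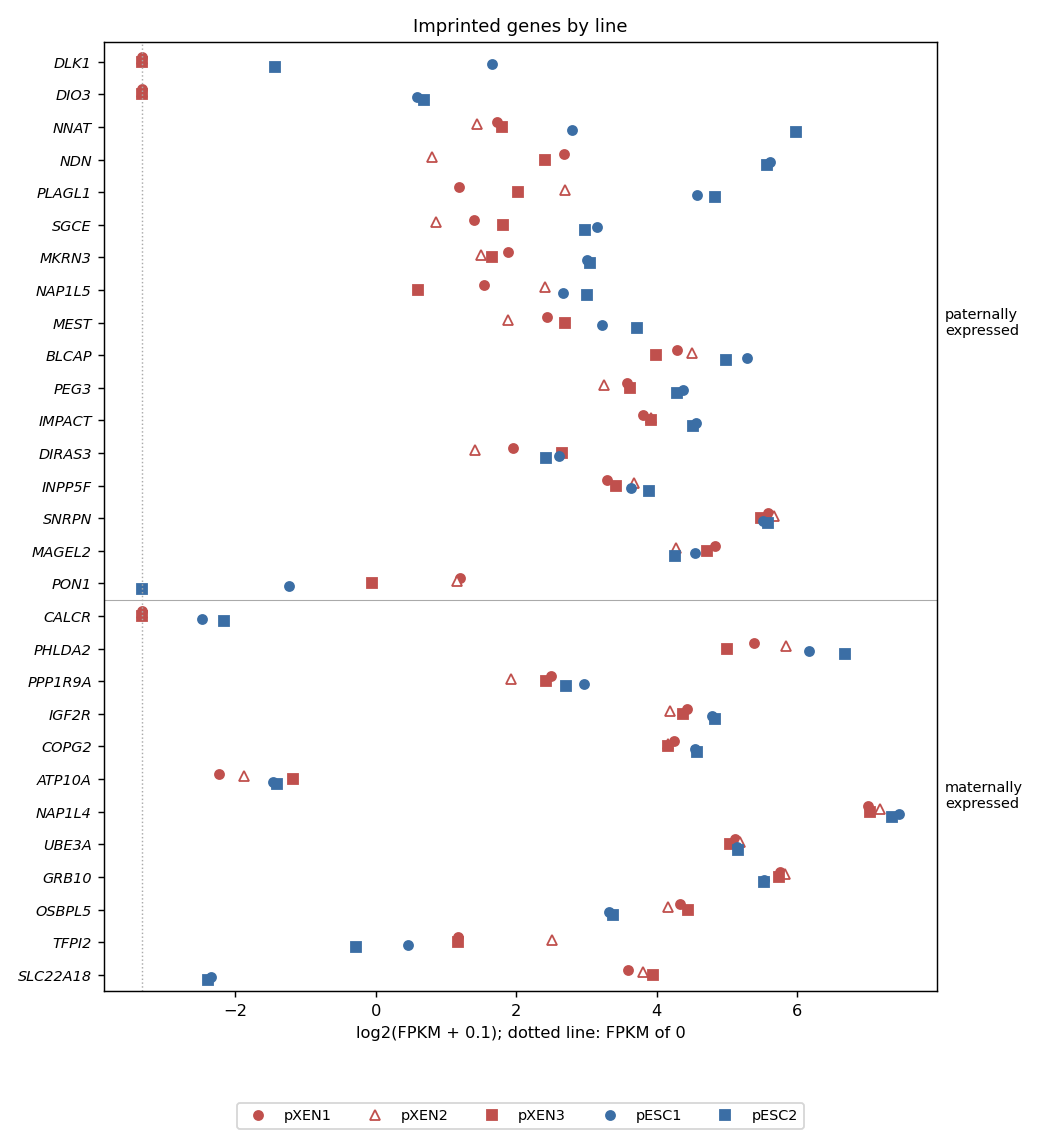
Level of imprinted genes with over 3 counts in some library as log2(FPKM + 0.1), with pXEN lines in red (line 2 as open triangles) and primed ESC lines in blue; the dotted line marks an FPKM of 0. Among paternally expressed genes NDN, PLAGL1 and SGCE lie lower in every pXEN line, while SNRPN and MAGEL2 overlap between the cell types.

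The insulin-like growth factor axis had 6 of 20 tested genes higher and 8 lower, of 27 listed, with 3 higher without either primed ESC line and 3 and 4 lower. INSR, the insulin receptor, was at 0.231, 0.359 and 0.298 FPKM against 5.55 and 5.61, a log2 fold change of -4.21 ± 0.25 (edgeR, adjusted p = 1.04e-05). IGFBP6, a binding protein that prefers IGF2, was at 4.15, 5.22 and 6.06 FPKM against 101 and 107. IRS4, a signal adaptor of these receptors, was higher, at 19.8, 9.36 and 19.7 FPKM against 1.81 and 1.56, a log2 fold change of 3.27 ± 0.38 (edgeR, adjusted p = 2.98e-04).

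Genes of the primary cilium, the sensory antenna of most resting cells, were counted in a pair of lists, beside 23.9% higher and 24.4% lower over all tested genes. Intraflagellar transport and the BBSome had 4 of 38 tested genes higher and 10 lower, of 43 listed; the higher count was 2 with upper-quartile scaling, 2 without pXEN line 3 and 2 and 1 without primed ESC lines 1 and 2. The ciliary gate and basal body had 7 of 40 higher and 11 lower, of 43 listed, with 3 higher without either primed ESC line. WDR35, a subunit of the transport complex, was at 3.86, 4.52 and 4.78 FPKM against 18.6 and 19.7, a log2 fold change of -2.11 ± 0.12 (edgeR, adjusted p = 1.07e-05). TUB, which brings receptors into the cilium, had 0 counts in every pXEN line against 175 and 148 and was at least 44.2-fold lower. OFD1, a protein of the basal body on chromosome X, was higher, at 9.57, 9.07 and 9.12 FPKM against 3.13 and 3.01.

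Immune and germline lists were divided. MHC class I and interferon response genes had 10 of 30 tested higher and 8 lower, of 59 listed, with 5 higher and 4 and 3 lower without primed ESC lines 1 and 2, 9 higher and 10 lower without pXEN line 2, and 5 lower without pXEN line 3. IFIT2, an interferon-induced gene, had 75, 53 and 84 counts against 2 and 6, while EIF2AK2, the kinase activated by double-stranded RNA, was at 1.35, 1.38 and 1.91 FPKM against 8.95 and 12.3, a log2 fold change of -2.77 ± 0.30 (edgeR, adjusted p = 2.00e-04). Germline and piRNA genes had 5 of 19 tested higher and 5 lower, of 49 listed, with 2 of each without primed ESC line 2 and 3 lower without primed ESC line 1. TFAP2C, a factor of germ cells and trophoblast, had 0 counts in every pXEN line against 1553 and 1519 and was at least 419-fold lower, and PRDM1, a repressor of germ cells and endoderm, was at 8.12, 5.31 and 5.93 FPKM against 1.60 and 1.93.

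Markers of other cell types were counted in the same way, and as these are bulk libraries, fewer cells of a type and less RNA per cell cannot be told apart. Fibroblast and mesenchyme markers had 11 of 22 tested lower in pXEN and 1 higher, of 26 listed; 7 were lower without either primed ESC line and 16 without pXEN line 2, while 3 were higher without pXEN line 1 and without pXEN line 3. VIM, or vimentin, was at 58.6 FPKM in pXEN line 2 and lower in the other pXEN lines, down to 9.36, against 837 and 920, a log2 fold change of -5.04 ± 0.74 (edgeR, adjusted p = 9.29e-04), and its fold with counts raised to 3 was 33.0, or 86.2 without pXEN line 2. COL3A1, a collagen of fibroblasts, had 20, 4251 and 203 counts against 12 and 29 and was called higher through pXEN line 2: its fold was 84.8 with that line and 6.61 without it, or 138 without primed ESC line 2, and without primed ESC line 1 or line 2 it was not called (edgeR, adjusted p = 0.183 and 0.157). Of the 25 fibroblast markers found, 4, 0 and 2 were at 0 counts in the pXEN lines, against 1 and 2 for primed ESCs. In trophoblast, 8 of 11 tested markers were lower and 1 higher, of 23 listed, with 4 lower without primed ESC line 2. The higher one, TFAP2B, had 21, 31 and 35 counts against 1 and 18 and was not called without pXEN line 3 or without primed ESC line 1. The summed FPKM was between 30.0 and 33.1 in the pXEN lines and 128 in both primed ESC lines. All 8 lower trophoblast markers were lower by at least 4-fold, while HAND1 and GCM1, of the same list, had 0 counts in all 5 libraries. Of blood cell markers, 2 of 4 tested were lower, of 12 listed, or 1 without pXEN line 1, pXEN line 3 or primed ESC line 2 and 0 without primed ESC line 1; the summed FPKM was between 6.13 and 8.17 in pXEN and 16.0 and 12.2 in the primed ESC lines, with PTPRC and HBB at 0 in all 5. No Y-linked marker passed the filter.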

How the data were processed

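RNA of 7 lines was sequenced, 1 library per line. The authors deposited raw read counts per gene, without normalization, and FPKM, for 29510 genes; the submitters' processing notes name HISAT2 2.0.5, featureCounts 1.5.0-p3, edgeR 3.22.5 and the genome build Sscrofa10.2. How reads from near-identical gene copies or from antisense genes were counted is not given in the sources used here, so members of families such as the cytochromes P450 and MHC class I genes are uncertain. Symbols missing from the table were filled for 1785 genes from a table of gene names matched by identifier, and where a symbol had several rows the row with the most counts was used.

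Differences were tested on the raw counts with edgeR 4.0.16 (R 4.3.3; quasi-likelihood F test, TMM, filterByExpr, Benjamini-Hochberg adjustment) in 1 model of the 7 libraries in 3 groups, which share 1 estimate of the spread (biological coefficient of variation 0.223). The filter kept 17447 genes, 12153 of them with a symbol. The test was checked on simulated data. FPKM was used for levels only. Normalization factors ran from 0.897 to 1.07. Floors and bounds cover counting error only. The members and lists were chosen with earlier results of these data known, from general knowledge of gene function. Genes were named by rule: for each direction, the 12 greatest folds among genes that were called, had a symbol, did not overlap between groups and reached 3 in mean log2 CPM, known markers left out; up to 4 called members of each list in its leading direction and up to 2 in the other; the markers of the cell types; and members of the imprinted and other cell type lists. The alternatives were DESeq2 1.42.0 (its size factors and its test), upper-quartile scaling, no filter, the 5 libraries alone, and limma 3.58.1 on log2(FPKM + 0.1) and log2(FPKM + 1). Others were a test against a log2 fold change of 1, the line number as a block, and leaving out each library. Genes of chromosome 13 were also left out of the counts of calls, with the fit unchanged. A search of promoter sequences was not analysed here, and some genes that the rule names are not reported here.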

Additional observations from a re-analysis of the deposited data

How the results depend on the processing

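The counts of genes called kept within 1.5 times of 4168 higher and 4261 lower under other scalings, filters and tests, with edgeR's test against a log2 fold change of 1 as the exception: it called 1947 genes higher and 1897 lower, as it asks for a larger difference. Upper-quartile scaling gave 3770 higher and 4811 lower, with a median log2 fold change over all genes of -0.09 instead of -0.01. Without each library in turn, between 2706 and 4572 genes were called higher and between 2847 and 4994 lower. The lowest counts came without primed ESC line 1 (2768 higher) and line 2 (2706 higher), which leave 1 primed ESC library that is assumed to vary like the other groups. The line numbers of the cell types mark no shared origin in the sources used here. Deviations of lines with the same number correlated at 0.127 and 0.163, and those of pXEN line 3 and primed ESC line 1 at 0.122. With 2 primed ESC lines, their deviations mirror each other, so these values cannot show a link by number. With the line number as a replicate block, 3546 genes were called higher and 3447 lower, and 19 of 228 named genes were no longer called. No named gene changed direction under any of these settings. The settings with 1 primed ESC library left 30 and 32 of the named genes uncalled, and the test against a log2 fold change of 1 left 52. That test moved 44 of the 76 counts of list members by over 1.5 times, leaving aside changes between 0 and 1, and the replicate block moved 9. At this depth, 3 counts in a library correspond to between 0.224 and 0.307 CPM, and a difference below that level was not detectable.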

Other observations

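Gene names were also grouped by their first letters, and 83 groups had at least 15 tested genes; the groups given here were chosen after their values were seen. Over all tested genes, 23.9% were higher and 24.4% lower. The translation initiation factors, named EIF, had 24 of 44 tested genes lower in pXEN and 3 higher, with a median log2 fold change of -0.39. The subunits of RNA polymerases, named POLR, had 15 of 26 lower and 1 higher, with a median of -0.53. Small-subunit proteins of the mitochondrial ribosome, named MRPS, had 13 of 23 lower and 1 higher, with a median of -0.53. The DEAD-box RNA helicases, named DDX, had 15 of 31 lower and 1 higher, with a median of -0.35. Proteins of the large cytosolic ribosomal subunit, named RPL, had 12 of 40 lower, with a median of -0.34. The WNT ligands had the lowest median of the 83 groups, -2.54, with 10 of 15 lower and 2 higher.

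The deposited annotation gives a protein domain family for many genes. Among families with at least 15 tested genes, serpins, a family of protease inhibitors, had the highest median, 2.69, with 11 of 15 higher in pXEN and 2 lower. Genes with an LDL receptor repeat had 10 of 15 higher and 3 lower, with a median of 1.56, and genes with a trypsin domain 16 of 38 higher and 7 lower, with a median of 1.14. Cadherins had the lowest median, -1.63, with 29 of 66 lower and 14 higher. The families overlap the lists above in their members, and these values are given as a description.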
